A study of Mus musculus with 2 samples.

Results

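The heat shock, DnaJ and chaperonin genes form the cell's main protein-folding machinery, and 82 of the 55536 annotated genes measured in this series belonged to them. Members were chosen by name, with earlier results of these data known. Their symbols start with Hspa, Hspb, Hspd, Hspe, Hsph, Hsp90, Dnaja, Dnajb, Dnajc or Cct followed by a digit. The second condition was a protein-coding transcript. Of 98 genes that matched by symbol, 16 did not meet the second condition: 15 were processed pseudogenes, and Cct6a is not analysed here. The samples were hippocampus of aged female B6CASTF1/J mice, an F1 cross between C57BL/6J and CAST/EiJ, 18 to 20 months old, and were labelled as a layer of hippocampus. They formed 1 group of 2 total RNA libraries, each from 300 ng of RNA with ERCC spike-in RNA added, and the labels name no treatment, mutation, transgene or stress. The libraries were biological replicates 2 and 1, with a biosample label each and 1 donor label in common, so whether they came from separate animals cannot be told from the labels. With 1 group there was no contrast and no p-value, and each ratio of replicate 2 over replicate 1 describes these libraries.

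Proteins of the HSP70 family hold unfolded stretches of a client protein in an ATP-driven cycle that is started by J proteins, the products of the Dnaj genes. HSP90 proteins act later on near-folded clients such as kinases and steroid receptors, the ring-shaped chaperonins enclose whole proteins, and small heat shock proteins hold aggregating ones. Some members are expressed at all times in most cells, and in neurons serve protein turnover and synaptic vesicles. Others are switched on by the heat shock factor HSF1, which binds repeats of GAA in alternating orientation (the heat shock element), or, for folding proteins of the endoplasmic reticulum (ER), by the unfolded protein response through the ER stress response element.

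Printed first are promoters of heat-inducible and ER-stress-inducible members, chosen because they hold a match to one of these elements. Hspa1a, Hspa1b and Hspa5 among them were over 1.2-fold apart between the libraries. Dnajb1, Dnajb11 and Dnajc25 were apart as well, and their promoters held no match to these elements. Each runs from 250 bases before to 50 bases after the start site annotated in RefSeq on GRCm38.p6, 5′ to 3′ on the gene's own strand, with the first transcribed base counted as 1. Capitals mark an inverted pair of heat shock units, GAANNTTC, in Hspa1a and Hspa1b.
Hspa1a, chr17:34972107-34972406, minus strand: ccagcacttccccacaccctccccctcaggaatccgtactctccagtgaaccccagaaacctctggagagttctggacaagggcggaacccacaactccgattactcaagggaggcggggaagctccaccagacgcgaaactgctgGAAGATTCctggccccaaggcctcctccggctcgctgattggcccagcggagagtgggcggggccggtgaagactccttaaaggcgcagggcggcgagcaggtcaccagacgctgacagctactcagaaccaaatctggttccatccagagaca
Hspa1b, chr17:34959189-34959488, minus strand: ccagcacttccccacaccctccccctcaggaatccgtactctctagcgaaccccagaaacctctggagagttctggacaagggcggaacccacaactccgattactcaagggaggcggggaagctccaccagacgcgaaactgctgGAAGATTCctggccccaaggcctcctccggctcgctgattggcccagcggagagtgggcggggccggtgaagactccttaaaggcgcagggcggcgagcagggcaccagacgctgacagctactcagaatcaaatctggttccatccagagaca
These neighbouring genes had promoters that differed at 4 of 300 positions, and the pair of units stood from −104 to −97 in both.

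In the next pair the capitals mark heat shock elements of 3 units, GAANNTTCNNGAA, read on either strand.
Hsph1, chr5:149636287-149636586, minus strand: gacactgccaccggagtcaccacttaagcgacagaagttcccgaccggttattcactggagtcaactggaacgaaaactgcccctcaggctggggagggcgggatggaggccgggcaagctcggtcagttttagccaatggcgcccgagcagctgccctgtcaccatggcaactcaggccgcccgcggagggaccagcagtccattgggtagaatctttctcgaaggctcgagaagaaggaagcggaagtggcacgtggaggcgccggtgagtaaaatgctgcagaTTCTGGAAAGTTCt
Hspe1, chr1:55087898-55088197, plus strand: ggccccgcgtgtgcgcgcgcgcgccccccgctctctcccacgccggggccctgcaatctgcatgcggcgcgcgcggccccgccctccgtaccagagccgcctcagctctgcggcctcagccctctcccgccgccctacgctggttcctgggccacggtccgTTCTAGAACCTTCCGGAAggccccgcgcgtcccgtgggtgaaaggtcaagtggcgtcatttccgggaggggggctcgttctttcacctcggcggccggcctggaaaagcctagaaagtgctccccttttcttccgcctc
In Hsph1 the match lay after the start site, from 37 to 49. In Hspe1 there were 2 overlapping matches, between −89 and −72, in a stretch that also precedes Hspd1, which starts 216 bases away on the other strand.

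In the last set the capitals mark the ER stress response element, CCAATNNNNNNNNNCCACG, on either strand.
Hspa5, chr2:34771840-34772139, plus strand: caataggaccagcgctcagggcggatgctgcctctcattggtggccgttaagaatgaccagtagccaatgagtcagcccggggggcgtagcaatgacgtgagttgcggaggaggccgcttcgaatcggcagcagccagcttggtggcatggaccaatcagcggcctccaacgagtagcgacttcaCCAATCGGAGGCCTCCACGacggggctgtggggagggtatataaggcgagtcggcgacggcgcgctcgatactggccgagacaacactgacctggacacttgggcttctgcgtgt
Dnajc3, chr14:118937682-118937981, plus strand: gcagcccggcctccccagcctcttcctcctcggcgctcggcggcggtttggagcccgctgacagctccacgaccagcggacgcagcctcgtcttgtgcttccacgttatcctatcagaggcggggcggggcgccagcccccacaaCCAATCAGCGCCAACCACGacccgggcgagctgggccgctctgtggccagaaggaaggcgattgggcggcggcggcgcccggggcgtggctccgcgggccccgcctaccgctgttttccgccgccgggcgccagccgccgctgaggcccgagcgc
Hsp90b1, chr10:86705395-86705694, minus strand: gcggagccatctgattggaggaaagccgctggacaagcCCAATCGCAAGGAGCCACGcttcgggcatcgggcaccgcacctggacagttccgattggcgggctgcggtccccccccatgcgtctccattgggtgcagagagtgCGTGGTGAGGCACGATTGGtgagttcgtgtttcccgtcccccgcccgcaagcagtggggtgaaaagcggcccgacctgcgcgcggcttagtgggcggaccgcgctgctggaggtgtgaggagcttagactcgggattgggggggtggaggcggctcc
Hsp90b1 held 2 matches, the second on the opposite strand, and each ER element contains a CCAAT box by its definition.

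RefSeq promoters were found for 67 of the 82 members. The 3-unit heat shock element matched 4 of these 67 (Hsph1, Hspd1, Hspe1 and Dnajb6), against 0.603% of all 32851 promoters in the table. The inverted pair, which lies inside every 3-unit match, was found in 15 of the 67 (22.4%), against 7.86% of all promoters. The other arrangement of a pair, TTCNNGAA, was found in 7 of the 67 (10.4%), against 8.52% of all promoters. By list, GAANNTTC was present in 6 of 7 heat-inducible members with a promoter, 0 of 5 constitutive members and 0 of 5 ER-stress-inducible members. The ER element matched Hspa5, Hsp90b1 and Dnajc3 among the members, and 0.119% of all promoters. The heat-inducible Hsp90aa1 had no entry. The constitutive Hspa8, Hsp90ab1 and Dnajc5 and the ER-stress-inducible Hspa13 had none either, so these genes were not searched. A match is a run of letters and not evidence of binding, and the windows of Hspd1 and Hspe1 share 285 bases, so their matches are the same sites.

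**Figure D1:**
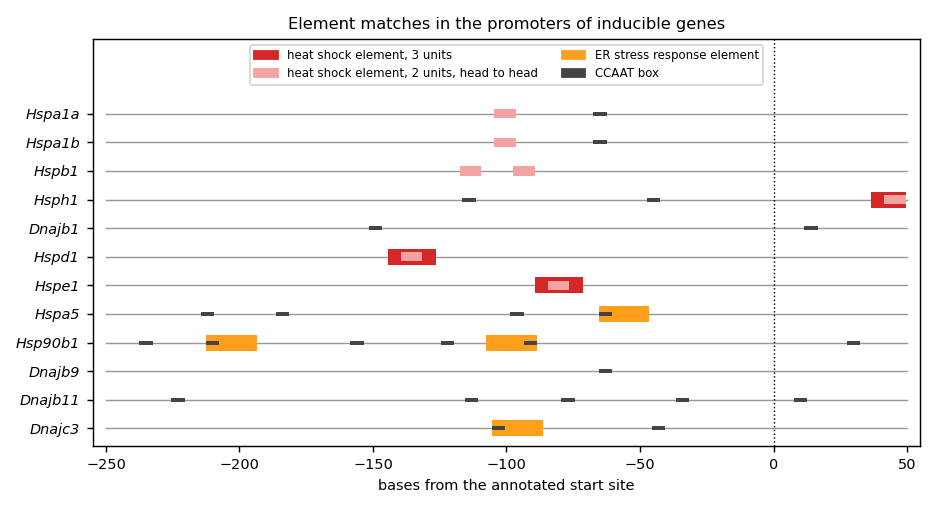
Positions of element matches, in bases from the annotated start site (horizontal axis), in the promoters of the heat-inducible (upper 7) and ER-stress-inducible (lower 5) members that had one. The 3-unit heat shock element is seen in Hsph1, Hspd1 and Hspe1, and the ER element in Hspa5, Hsp90b1 (2 matches) and Dnajc3.

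The deposited gene tables held 36307291 counts assigned to genes in replicate 2 and 35358140 in replicate 1, with 0.489% and 0.493% more on spike-ins. Excitatory neuron markers were detected in both libraries (7 of 7), with Camk2a at 1278 and 1333 TPM in replicates 2 and 1, so the labelled tissue had its defining markers. TPM is a level corrected for transcript length and scaled to one total per library, and detected means here that neither library had a TPM under 1. Protein-coding genes took 42.9% of all TPM in replicate 2 and 44.6% in replicate 1, so TPM runs lower in replicate 2, and ratios were therefore taken from expected counts scaled by TMM, a normalization on the bulk of the genes. The biological coefficient of variation between the libraries was 4.66% over 17697 genes. Counting intervals cover counting error only.

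Most members were expressed: 68 of 82 were detected, against 12720 of 22015 nuclear protein-coding genes. The median level was 19.4 TPM in replicate 2 and 21.6 TPM in replicate 1 over the members, against 3.21 and 3.28 TPM over nuclear protein-coding genes. Together the members held 1.13% of nuclear protein-coding TPM in replicate 2 and 1.2% in replicate 1. In the second quantification deposited, of the kallisto layout, the median was 37.9 and 41.1 TPM and the share was 1.15% and 1.21%. In bulk tissue, fewer cells of a type and less RNA per cell cannot be told apart.

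**Figure D2:**
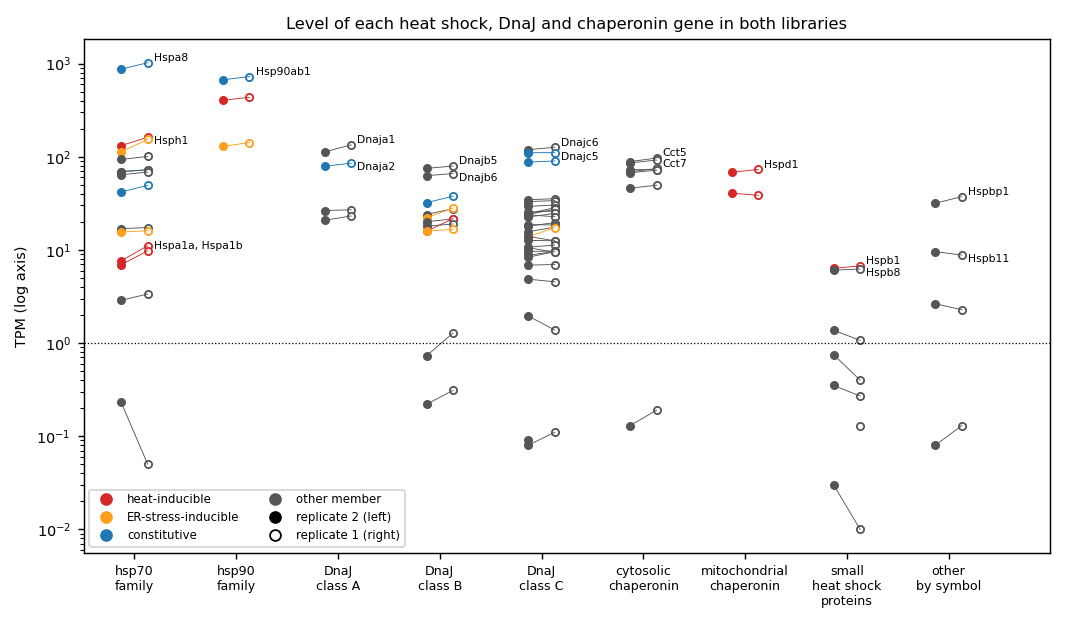
Level of each member in TPM (log axis) by family, replicate 2 as filled and replicate 1 as open circles joined by a line; colours give the lists and the dotted line the detection limit. Members at 0 have no point. Hspa8 and the cytosolic HSP90 genes stand above all others, and the lowest points belong mostly to testis-type and small heat shock protein genes.

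Within the HSP70 family the constitutive cytosolic gene Hspa8, whose product also uncoats clathrin vesicles, was the highest of all members, with a TPM of 876 in replicate 2 and 1023 in replicate 1. Its mean level ranked 11 among nuclear protein-coding genes. The heat-inducible cytosolic genes Hspa1b and Hspa1a lay far lower: Hspa1b had 7.64 TPM in replicate 2 and 11.1 TPM in replicate 1. Hspa1a had 6.92 and 9.80 TPM in the same order. Hspa5, the HSP70 protein of the ER lumen, had 113 TPM in replicate 2 and 154 TPM in replicate 1. Hsph1, an HSP110 protein that exchanges nucleotide on HSP70, had 132 and 162 TPM, and its constitutive relative Hspa4 had 69.3 and 72.7 TPM. Hspa12a, a distant family member abundant in brain, had 93.6 TPM in replicate 2 and 101 TPM in replicate 1. Hspa2 had 42.0 and 49.4 TPM, and Hspa13, an ER-associated member, 15.6 and 16.1 TPM. Hspa1l, known from testis, was the lowest, at 0.23 and 0.05 TPM.

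The 3 HSP90 genes taken by symbol were all among the 5 highest members by mean TPM. Genes of this family outside the symbol rule are not covered. Constitutive Hsp90ab1 had 671 TPM in replicate 2 and 727 TPM in replicate 1, inducible Hsp90aa1 had 405 and 435 TPM, and Hsp90b1, the ER form, had 130 and 142 TPM. None of these 3 genes differed between the libraries by as much as 1.2-fold.

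Among the J proteins, class A was detected throughout, with Dnaja1 at a TPM of 113 in replicate 2 and 134 in replicate 1, followed by Dnaja2 (79.1 and 85.4 TPM), Dnaja3 (26.5 and 27.0 TPM) and Dnaja4 (20.8 and 23.2 TPM). Class B was led by Dnajb5 at 75.1 and 79.6 TPM, Dnajb6, a suppressor of aggregation, at 62.7 and 66.0 TPM, and neuronal Dnajb2 at 32.2 and 37.7 TPM. Dnajb4 had 24.0 TPM in replicate 2 and 27.7 TPM in replicate 1. Class C was led by J proteins of the synapse: Dnajc6 (auxilin), which recruits Hspa8 to clathrin coats, had 119 and 127 TPM. Dnajc5 (cysteine string protein), which keeps synaptic vesicle release going, had 111 TPM in each library. Dnajc7 had 87.6 and 90.2 TPM, and Dnajc8 34.6 and 35.5 TPM. All 6 genes listed as synaptic and vesicle J proteins (Dnajc5, Dnajc6, Dnajc7, Dnajc13, Dnajb2 and Dnajb6) were detected. Their median TPM was 75.2 in replicate 2 and 78.1 in replicate 1. The list is wider than its name, since it also holds Dnajb6, Dnajb2 and Dnajc7, so its median is not that of synaptic genes alone.

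Of the 7 cytosolic chaperonin members taken by symbol, 6 were detected. Cct5 had 88.8 TPM in replicate 2 and 97.0 TPM in replicate 1. Cct7 had 85.9 and 92.4 TPM, Cct8 72.8 and 72.8 TPM, and Cct3 69.1 and 74.9 TPM. The ring subunit gene Tcp1 lies outside the symbol rule, and had 80.35 TPM in replicate 2 and 86.88 TPM in replicate 1. Cct6b, a subunit known from testis, had 0.13 and 0.19 TPM. The mitochondrial chaperonin genes were Hspd1, at 68.3 and 73.2 TPM, and its lid Hspe1, at 40.7 and 38.6 TPM.

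Small heat shock proteins, as taken by symbol, were the lowest family, with 3 of 7 detected. Cryab is a small heat shock protein gene too, but lies outside the symbol rule. Its TPM, 45.45 (replicate 2) and 69.03 (replicate 1), exceeded that of each of the 7, so the low family level does not cover Cryab. Hspb1 had 6.35 TPM in replicate 2 and 6.73 TPM in replicate 1, Hspb8 6.07 and 6.23 TPM, and Hspb6 1.37 and 1.07 TPM, while Hspb3 had 0.75 and 0.40 TPM and Hspb7 0.03 and 0.01 TPM. The remaining genes taken by their symbols were Hspbp1, an HSP70 cofactor, at 31.8 and 37.3 TPM, Hspb11 at 9.57 and 8.81 TPM, Hspbap1 at 2.64 and 2.28 TPM, and Cct8l1 at 0.08 and 0.13 TPM. None of the 9 testis-type members was detected, and Dnajb7, Dnajb8 and Dnajc5g had 0 counts in both libraries in the RSEM layout, where a count of 0 allows up to 3 counts.

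To set inducible against constitutive members, 8 heat-inducible genes (Hspa1a, Hspa1b, Hspb1, Hsp90aa1, Hsph1, Dnajb1, Hspd1 and Hspe1) were compared with 8 constitutive ones (Hspa8, Hspa2, Hsp90ab1, Hspa4, Dnaja2, Dnajb2, Dnajc5 and Dnajc7). The heat-inducible median TPM was 28.3 in replicate 2 and 30.1 in replicate 1, and the constitutive median was 83.4 and 87.8 TPM. The ratio of the medians, inducible over constitutive, was 0.341 ± 0.00300 (SD, n = 2 libraries). It was 0.164 over the 6 cytosolic inducible genes, without Hspd1 and Hspe1, and 0.464 with Dnaja1 added, so its size rested on which genes were listed. Within both lists single genes spanned a wide range, so the lists overlapped in level.

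Apart from Hspd1 and Hspe1, each inducible gene was also paired with a constitutively expressed gene of its own family. The pairs were chosen by name and not by sequence likeness, Hspb6 is not in the constitutive list, and the percents hold for these pairs alone. Hspa1a and Hspa1b summed to 1.66% of the Hspa8 level in replicate 2 and 2.04% in replicate 1. Hsp90aa1 stood at 60.3% and 59.9% of Hsp90ab1 in the RSEM layout and at 91.9% and 89.3% in the kallisto layout. Dnajb1 stood at 49.3% of Dnajb2 in replicate 2 and 57.4% in replicate 1, and in the kallisto layout at 32.9% and 36.4%. Hsph1 exceeded its relative, at 190.5% of Hspa4 in replicate 2 and 223% in replicate 1. Hspb1 stood at 464% and 629% of Hspb6, or 705% and 684% in the kallisto layout, a ratio that rests on 43 and 36 Hspb6 counts. The inducible HSP70 genes were thus the lowest of these 5 pairs relative to the constitutive gene, in both libraries and both layouts.

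**Figure D3:**
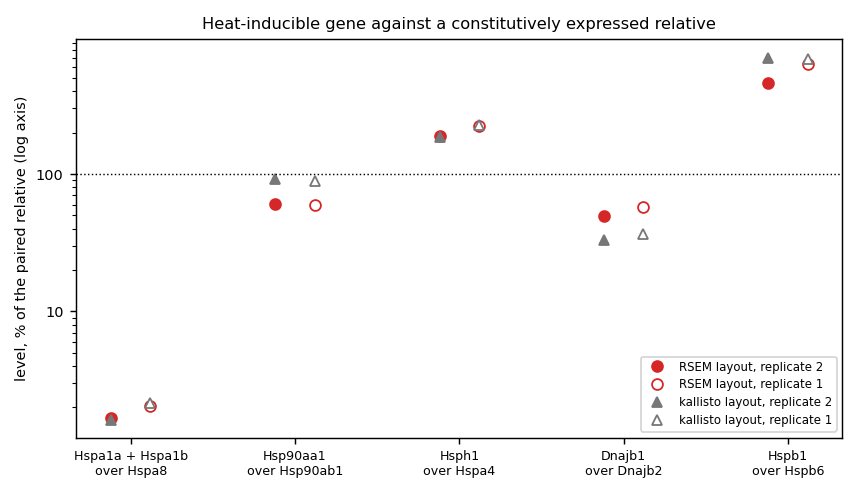
Level of each paired heat-inducible gene as a percent of its constitutive relative (log axis). Circles are RSEM-layout TPM and triangles kallisto-layout TPM, with replicate 2 filled and replicate 1 open. Hspa1a plus Hspa1b lie near 2% of Hspa8, the HSP90 and class B pairs lie below 100%, and Hsph1 and Hspb1 lie above it.

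The libraries were close to each other over most members. Of the 67 members that averaged 50 or more counts, 6 were over 1.2-fold apart, against 10.4% of the 14307 genes tested, and 0 were over 2-fold apart, against 0.384%. Of the 67, 5 were past 1.2-fold lower in replicate 2, against 4.75% of genes, and 1 was higher, against 5.62%. Over all genes tested, 679 were lower and 804 higher past that limit. Among genes averaging 200 or more counts, the same 5 of 61 members were lower, against 2.07% of 11291 genes. The median log2 ratio was −0.03 over the 70 members with at least 10 counts, 46 of them lower and 24 higher in replicate 2, against 0.00 over 18350 genes. In TPM as deposited, in which the median of all genes is −0.06, 58 were lower and 12 higher. With spike-in scaling 42 were lower and 28 higher, and in kallisto-layout counts 44 were lower and 26 higher. The median size of the log2 ratio was 0.05 for members and 0.09 for all genes at this minimum. It was 0.05 against 0.07 with at least 50 counts, and 0.05 against 0.06 with at least 200.

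The 5 members over 1.2-fold lower in replicate 2 were 3 heat-inducible and 2 ER-stress-inducible genes. Hspa1b had 564 expected counts in replicate 2 and 766 in replicate 1, a fold of 0.719 after scaling, with a 95% exact counting interval of 0.644 to 0.803. Hspa1a had 542 and 717 counts, a fold of 0.738 (0.659 to 0.826). Dnajb1, the J protein that feeds clients to inducible HSP70, had 1253 and 1599 counts, a fold of 0.765 (0.710 to 0.824). Each of these intervals lay wholly below 1. The genes were named for these same folds, so the intervals are no separate support.

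Among the ER genes, Hspa5 had 7323 counts in replicate 2 and 9310 in replicate 1, a fold of 0.768 (0.745 to 0.792). Dnajb11, an ER J protein that partners Hspa5, had 1105 and 1309 counts, a fold of 0.824 (0.760 to 0.894). Dnajc3, a further ER J protein, fell just short of the 1.2-fold limit with 1909 and 2229 counts, a fold of 0.836 (0.786 to 0.889). The member that was higher in replicate 2 was Dnajc25, a membrane J protein, with 140 and 103 counts and a fold of 1.33 (1.02 to 1.73), and its exons overlap those of Gm20503 on the same strand.

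**Figure D4:**
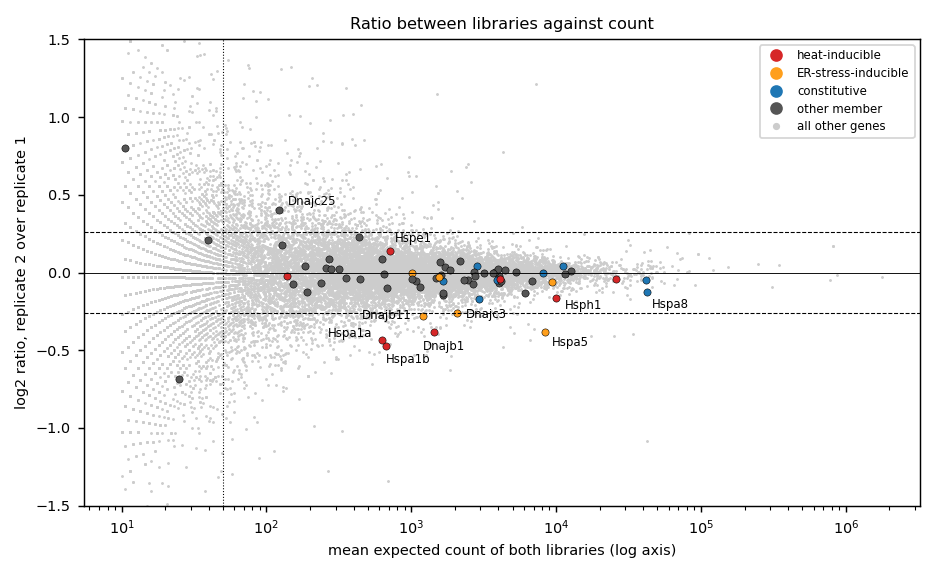
The log2 ratio of replicate 2 over replicate 1 against the mean expected count (log axis) for members (coloured by list) and all other genes (grey); dashed lines mark 1.2-fold, the dotted line a mean count of 50, and genes beyond 1.5 on the vertical axis are not drawn. Hspa1a, Hspa1b, Dnajb1, Hspa5 and Dnajb11 lie below the lower dashed line and Dnajc25 above the upper one.

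The coding sequences of Hspa1a and Hspa1b were 99.4% identical, with 11 differing bases and an identical run of 638 bases, so reads can be split between them by the estimate. Summed, they had 1106 counts in replicate 2 and 1483 in replicate 1, a fold of 0.728 (0.673 to 0.788), so the difference did not depend on that split. By contrast, Hspa1a shared 74.0% with Hspa8 and Hsp90aa1 shared 75.6% with Hsp90ab1. An exon of Hspa1a overlaps Gm20481 on the other strand, and the strand setting of the counting is not given in the sources used here.

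The lists were chosen with earlier results of these data known, so counts by list are descriptive. By list, 7 of 8 heat-inducible members were lower in replicate 2, against 9190 of 18350 genes. Of the 8, 3 were lower past 1.2-fold, against 4.75% of genes. The median log2 ratio of the 8 was −0.10. Over the 6 cytosolic ones all were lower, with a median of −0.27. Within them Hspb1 was nearly level at 139 and 138 counts (fold 0.984, 0.771 to 1.25), and in kallisto-layout counts its log2 ratio was 0.13, on the other side of 0. Hsp90aa1 had a fold of 0.973 (0.957 to 0.990), and Hsph1, with 9550 and 10445 counts, a fold of 0.893 (0.868 to 0.918). The mitochondrial pair split, with Hspd1 at a log2 ratio of −0.04 and Hspe1 at 0.14, and these genes have overlapping exons on opposite strands.

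Of the 6 ER-stress-inducible members (Hspa5, Hsp90b1, Hspa13, Dnajb9, Dnajb11 and Dnajc3), 6 were lower in replicate 2 and 2 passed 1.2-fold, against 4.75% of genes, with a median log2 ratio of −0.16. Dnajb9 was on the other side of 0 in kallisto-layout counts, at 0.02, and with spike-in scaling, which left 5 of 6 lower in each. Hsp90b1 was near level with a fold of 0.961 (0.933 to 0.989), as were Hspa13 at 0.981 (0.914 to 1.05) and Dnajb9 at 0.996 (0.912 to 1.09). Among the 8 constitutive members 6 were lower, 5 with spike-in scaling and 8 in TPM as deposited, and 0 passed 1.2-fold, with a median of −0.05. Hspa8 itself had a fold of 0.918 (0.906 to 0.931) and Hspa2 one of 0.887 (0.842 to 0.934), while Dnajc5 had 1.03 (1.00 to 1.06) and Hspa4 0.999 (0.968 to 1.03). For the list of synaptic and vesicle J proteins the median log2 ratio was 0.01, and for the cytosolic chaperonin −0.03.

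Other genes of the same pathways were taken from lists chosen by function, also with earlier results of these data known. Among 16 tested genes of ER and mitochondrial folding, 4 were over 1.2-fold lower in replicate 2, against 4.75% of all genes tested, and 0 higher, against 5.62%. These were Manf, a secreted ER stress factor (1034 and 1315 counts, fold 0.768), Sdf2l1, a protein of the ER lumen (273 and 363 counts, fold 0.734), the disulfide isomerase Pdia4 (fold 0.818) and the stress transcription factor gene Ddit3 (281 and 371 counts, fold 0.740). The most abundant of that list, Calr, Canx and Pdia3, had folds of 0.90, 1.00 and 0.967.

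Of 21 cochaperones, 1 was lower past 1.2-fold, a share like the 4.75% of all genes. It was Fkbp5, an HSP90 cochaperone that is induced by glucocorticoids, with 2064 and 2549 counts and a fold of 0.791 (0.746 to 0.838). Bag6, Stip1 and Ahsa1, the most abundant ones, had folds of 0.965, 0.906 and 0.928. None of the 9 genes listed as chaperonin partners, led by Pfdn5, Tcp1 and Pfdn2, passed 1.2-fold in either direction. Of these, Tcp1 is itself a subunit of the chaperonin ring. None of the 3 heat shock factor genes passed 1.2-fold either. Hsf1 had 23.8 TPM in replicate 2 and 27.2 TPM in replicate 1, above Hsf2 (11.99 and 12.2 TPM) and Hsf4 (5.28 and 5.26 TPM), and its fold was 0.921 (0.848 to 1.00). Of 6 other stress genes, Cryab, a small heat shock protein gene that oligodendrocytes express strongly, was lower past 1.2-fold, with 865 and 1223 counts and a fold of 0.691 (0.632 to 0.754), while Sqstm1 had 0.971 and Gak 1.03.

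Markers of several other cell types also differed between the libraries, in both directions. Oligodendrocyte markers were lower in replicate 2 in 10 of 10 genes, 8 of them past 1.2-fold, against 4.75% of all genes tested. Their median log2 ratio was −0.35, and their summed TPM was 916 in replicate 2 and 1258 in replicate 1. Choroid plexus markers were lower in 8 of 8, only 3 of which had 50 counts. Ttr alone had 49.1 and 150.4 TPM, and the other 7 summed to 5.88 and 9.81 TPM. Ependymal markers were lower in 5 of 6, with a median of −0.31 and summed levels of 13.97 and 16.6 TPM. Meningeal fibroblast markers were higher in 8 of 8, at 96.4 and 58.1 TPM, and erythroid markers in 5 of 5, at 521 and 345 TPM. Mural cell markers were higher in 6 of 7 (median 0.35, 37.2 and 34.5 TPM) and endothelial markers in 6 of 6 (median 0.19, 75.1 and 74.1 TPM). The medians for excitatory neuron and astrocyte markers were 0.00 and 0.04. No marker of these lists was at 0 in both libraries, and the part of these cell types in the ratios of the members was not tested.

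**Figure D5:**
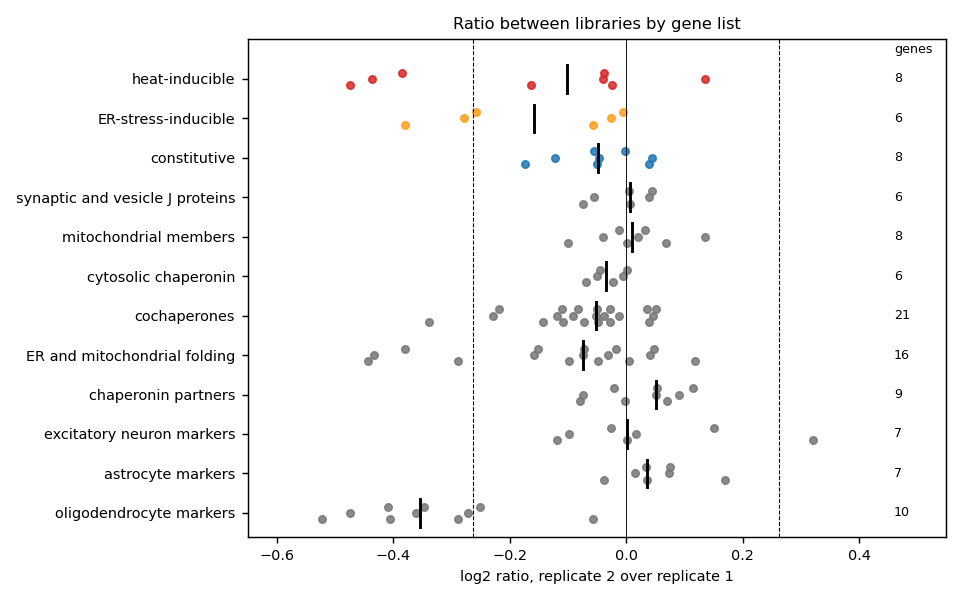
The log2 ratio of replicate 2 over replicate 1 for each gene of the lists named at the left with at least 10 counts; black bars are medians, dashed lines mark 1.2-fold, and the numbers at the right give the genes drawn. The heat-inducible and ER-stress-inducible lists reach below the lower line, as do cochaperones, ER folding genes and oligodendrocyte markers. The constitutive list, the list of synaptic and vesicle J proteins, and chaperonins stay between the lines.

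At the level of transcripts, 64 members had a mean TPM of at least 1 and 2 or more annotated transcripts. The leading transcript, the one with the largest share of the gene's TPM, did not differ between libraries for 63 of them, and was shared by the libraries in both layouts for 48. It was protein-coding for 60, and the protein-coding transcripts held a median of 91.5% of the gene's TPM. In the RSEM layout Hspa8 was led by Hspa8-202, with 43.3% in replicate 2 and 44.4% in replicate 1, and Hspa8-201 had 33.8% and 30.6%. The kallisto layout gave Hspa8-201 75.9% and 77.4%. Hsp90aa1-201 held 71.1% and 71.9% in the RSEM layout, and 50.6% in each library in the kallisto layout, where Hsp90aa1-207 had most of the rest, at 48.8% and 49.0%. The layouts thus disagreed on transcripts even where the libraries matched.

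Dnajb2 was the member whose leading transcript by RSEM-layout TPM differed between libraries. Dnajb2-207 held 48.4% in replicate 2 and 4.34% in replicate 1, and Dnajb2-208 held 0% and 39.0%. In the kallisto layout neither exceeded 2.14% in a library, and Dnajb2-204 led in both, with 30.8% and 32.9%. By expected counts Dnajb2-210 led Dnajb2 in both libraries, with 790 and 805 counts. Transcripts with no annotated protein product led Dnajc15 (Dnajc15-203, 37.7% and 42.1%), Dnajc24 (Dnajc24-202, 51.8% and 47.1%) and Dnajc19 (Dnajc19-205, a retained intron, 50.9% and 46.3%), and a transcript marked for nonsense-mediated decay led Cct7 (Cct7-202, 48.1% and 36.9%). These calls depended on the measure. Dnajc19-205 was at 0 in the kallisto layout in both libraries, and Dnajc24 was led there by the protein-coding Dnajc24-201, with 67.1% and 66.6%. By expected counts, the protein-coding Dnajc15-202 led Dnajc15 with 1449 and 1305 counts, and Cct7-201 led Cct7 in replicate 1 with 1561 counts against 1270.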

How the data were processed

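The authors deposited, per the file headers, an expected count, a posterior mean count, TPM and FPKM per gene, and per transcript an expected count, TPM and IsoPct, the percent of the gene's abundance, in columns named as RSEM writes them (the RSEM layout). The authors also deposited an estimated count and TPM per transcript in columns named as kallisto writes them (the kallisto layout), which were summed per gene. The deposited notes name mm10 and annotation M21; no aligner, software version or strandedness is stated in the sources used here. Expected counts were rounded, scaled by TMM (edgeR 4.0.16, R 4.3.3) and compared as log2 ratios with a prior count of 2; scaling was checked on simulated data. Apart from 26249 numbered rows that name no gene, with 6.00 counts in replicate 2 and 2.78 in replicate 1, all gene rows entered. Called members needed a mean count of at least 50 and a fold over 1.2 or 2. Counting intervals are exact binomial ones at 95%, given the sum of both counts. Motifs were searched with Python 3.11.15, coding sequences aligned with Biopython 1.88. Alternatives were DESeq2 1.42.0 size factors, library and spike-in totals, the other quantifications, other minimums and lists. Members and lists were chosen with earlier results of these data known. Genes named were all in the inducible, constitutive and ER lists, the 4 highest and the lowest by TPM of each family, those past 1.2-fold, and the 3 highest of each pathway list; Gm20503 and Gm20481 are named for overlaps.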

Additional observations from a re-analysis of the deposited data

Results flagged for a closer look

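Of 15 processed pseudogene rows whose symbols match the members, 1 by RSEM-layout and 2 by kallisto-layout counts exceeded in both libraries the limit of 3 counts compatible with a count of 0, although no comparison used them. In the RSEM layout Hspd1-ps3 had 25.9 expected counts in replicate 2 and 18.1 in replicate 1, and 0 counts in both in the kallisto layout. No control samples exist. Its parent Hspd1 had 4073 and 4090 counts, and the 15 rows together had 30.6 and 22.1. In the kallisto layout Hspa9-ps1 had 34.2 and 25.1 counts, Hspd1-ps4 had 6.01 and 3.001, the value in replicate 1 being at the limit itself, and the 15 rows had 44.2 and 28.1.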

How the results depend on the processing

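No paired analysis was possible because only 1 group exists. The median level, 19.8 TPM over both libraries, was 37.8 in kallisto-layout TPM, 14.5 in FPKM, and 25.9 over detected members, and 19.4 without replicate 1 and 21.6 without replicate 2. The inducible over constitutive ratio of medians, 0.341, was 0.164 without the mitochondrial chaperonin genes, 0.464 with Dnaja1, and 0.346 as a ratio of means. The cytosolic HSP90 ratio, 60.1%, was 90.6% in kallisto-layout TPM. The heat-inducible median log2 ratio, −0.10, was −0.20 in TPM as deposited, which shifted the median of all genes to −0.06, −0.18 as a mean, and −0.27 without the mitochondrial chaperonin genes. The median of all members, −0.03, was −0.091 in TPM as deposited, and that of constitutive members, −0.05, was −0.11 in TPM as deposited and −0.031 in kallisto-layout counts. For these, the cause was not tested.

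Members detected (63 to 69), members over 1.2-fold apart (5 to 8), members over 2-fold apart (0 throughout), and the count of shared leading transcripts (44 to 48) moved by less than 1.5 times. The share of TPM and the HSP70 pair ratio moved by no more than 1 SD of both libraries. Leaving out a library or using FPKM could not move these past 1 SD, so only kallisto-layout TPM could have done so. There the share was 1.18% against 1.17%, and the pair ratio 1.89% against 1.85%. The 6 members over 1.2-fold apart kept direction and size past that limit in 36 of 36 recomputations. Size factors and library or spike-in totals only rescale the same counts, so they could move these ratios little. Alternatives chosen after seeing the data gave 6 members called in both layouts and 5 without those overlapping an antisense exon. With 2 libraries of 1 group, ratios cannot leave a library out. Depth limits the testis-type members and Hspb2, Hspb3, Hspb6 and Hspb7, all under 50 counts.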
